A study of Mus musculus with 29 samples.

Results

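The 10 Notch ligands, receptors and fringes examined were the ligand genes Dll1, Dll3, Dll4, Jag1 and Jag2, the receptor genes Notch1, Notch2 and Notch3, and the fringe genes Lfng and Mfng. They were chosen by name, as 10 of 37273 genes annotated on the mouse mm9 build, and were described by the ChIP-seq peak summits that lie in the gene body or within 50 kb of it. These windows held 293 kept summits of 9 peak lists, which joined into 124 of the 78408 sites of the genome, where a site is a run of 300 bp windows around summits that share at least 1 bp. A kept summit is a called peak that the authors retained in their summit file. Summits lay nearest to an annotated start of the member gene itself in 143 of the 293 cases, so that many may belong to a neighbouring gene.

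Notch signalling passes between touching cells. A Delta (Dll) or Jagged (Jag) ligand on a cell binds a Notch receptor on its neighbour, the receptor is cut, and its inner part enters the nucleus to act with Rbpj on targets of the Hes and Hey families. In the inner ear and the nervous system, cells with high levels of a proneural factor such as Atoh1 present ligand and hold their neighbours in another fate, a process known as lateral inhibition. Fringe enzymes add a sugar to Notch and so shift its response between Delta and Jagged ligands.

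The study induced combinations of Gfi1 (G), Pou4f3 (P) and Atoh1 (A), factors needed for sensory hair cells, in mouse embryonic stem cells and mapped where they bound. All 6 lines derived from the A2loxCre parental line and carried a cassette that doxycycline switches on, which also encodes the fluorescent protein Venus: iAtoh1 (Atoh1), iPou4f3 (Pou4f3), iG+A (Gfi1 and Atoh1), iG+P (Gfi1 and Pou4f3), iP+A (Pou4f3 and Atoh1) and iGPA (all 3 factors). Embryoid bodies of every line received 2 µg/ml doxycycline for 48 h and were taken at day 6, and chromatin was precipitated through a Flag tag on Atoh1, a Myc tag on Pou4f3 or an antibody to Gfi1. The data came from 17 ChIP and 12 input libraries, with 2 libraries for each line and antibody except 1 for Gfi1, and the peaks were called on merged libraries. Each line and antibody therefore gave 1 list, so the differences below have no replicate check and no p-value, and the intervals printed cover counting error only. The factors were overexpressed in embryoid bodies, which hold mixed cells rather than hair cells, and the peak lists allow no check of cell type markers. No list from cells without doxycycline was analysed here, and the read depth behind each list is unknown.

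Sites are compared by fold enrichment, the ChIP signal at a summit over the local background that the peak caller estimated from input. In these bulk samples, binding in fewer cells and weaker binding in each cell cannot be told apart. The sequences around the summits that carry most of the results below are given first. Each is the plus strand of mm9, 5′ to 3′, over 121 bases centred on the summit with the highest fold enrichment, except that 300 bases are given for the Dll1 site. Capitals mark an E-box (CAGATG or CAGCTG, the letters of Atoh1), the Pou4f letters (ATAATTAAT with up to 1 mismatch) or the Gfi1 letters (AATCACNGC), each on either strand. The first group holds the sites with the highest Atoh1 enrichment near each ligand.
Dll1, 33.6 kb downstream of the start (chr17:15480035-15480334): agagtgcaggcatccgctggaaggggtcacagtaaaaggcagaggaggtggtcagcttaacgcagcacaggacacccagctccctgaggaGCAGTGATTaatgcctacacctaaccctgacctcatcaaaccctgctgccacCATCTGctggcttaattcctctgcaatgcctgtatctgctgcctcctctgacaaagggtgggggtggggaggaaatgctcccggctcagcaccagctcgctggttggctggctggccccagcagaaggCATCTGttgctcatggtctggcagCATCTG
Dll3, 84 bp upstream (chr7:29087281-29087401): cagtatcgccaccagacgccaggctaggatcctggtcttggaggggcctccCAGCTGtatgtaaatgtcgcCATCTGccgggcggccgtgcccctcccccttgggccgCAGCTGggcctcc
Dll4, 3.50 kb upstream (chr2:119147962-119148082): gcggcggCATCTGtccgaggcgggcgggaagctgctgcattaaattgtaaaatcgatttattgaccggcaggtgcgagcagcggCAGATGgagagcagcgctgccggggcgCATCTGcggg
Jag1, 15.3 kb downstream (chr2:136927035-136927155): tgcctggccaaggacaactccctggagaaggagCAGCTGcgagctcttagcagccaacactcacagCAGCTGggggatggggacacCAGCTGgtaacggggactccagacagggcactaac
Jag2, 8.65 kb upstream (chr12:114176299-114176419): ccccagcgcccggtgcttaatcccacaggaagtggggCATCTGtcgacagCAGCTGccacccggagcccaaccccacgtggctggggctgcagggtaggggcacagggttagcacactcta

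The second group holds the Atoh1 sites with the highest enrichment near Notch1 and the fringes, and the Lfng site at which Atoh1 and Gfi1 met.
Notch1, 29.7 kb downstream (chr2:26342428-26342548): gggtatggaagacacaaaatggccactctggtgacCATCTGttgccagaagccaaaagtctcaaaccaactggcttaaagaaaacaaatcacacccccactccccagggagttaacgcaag
Lfng, 1.88 kb upstream (chr5:141081359-141081479): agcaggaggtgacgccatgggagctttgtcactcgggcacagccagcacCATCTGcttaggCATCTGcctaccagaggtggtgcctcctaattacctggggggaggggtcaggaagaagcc
Lfng, 23.7 kb upstream (chr5:141059500-141059620): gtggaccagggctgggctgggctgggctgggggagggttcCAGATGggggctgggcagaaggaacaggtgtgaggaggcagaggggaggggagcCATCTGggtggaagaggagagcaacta
Mfng, 2.37 kb downstream (chr15:78601476-78601596): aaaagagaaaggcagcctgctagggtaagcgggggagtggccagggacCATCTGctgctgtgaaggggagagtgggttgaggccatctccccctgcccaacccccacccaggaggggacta

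The third group holds sites that all 4 Pou4f3 lists shared, 3 of them with the Pou4f letters and the strongest, near Notch1, without them.
Dll4, 17.8 kb downstream (chr2:119169300-119169420): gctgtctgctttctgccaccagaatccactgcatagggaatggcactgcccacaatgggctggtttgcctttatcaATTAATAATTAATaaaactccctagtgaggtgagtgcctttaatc
Jag1, 4.35 kb downstream (chr2:136937971-136938091): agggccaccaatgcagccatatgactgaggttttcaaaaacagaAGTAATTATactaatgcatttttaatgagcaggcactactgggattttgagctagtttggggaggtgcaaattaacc
Notch2, 11.5 kb downstream (chr3:97828864-97828984): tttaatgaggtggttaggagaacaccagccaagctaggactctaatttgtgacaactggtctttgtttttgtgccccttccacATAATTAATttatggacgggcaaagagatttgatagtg
Notch1, 72.8 kb downstream (chr2:26299302-26299422): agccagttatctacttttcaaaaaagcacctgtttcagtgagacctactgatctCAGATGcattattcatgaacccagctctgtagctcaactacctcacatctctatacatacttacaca

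Atoh1 peaks were found near every member in every Atoh1 list. The 4 lists held 39 summits in the member windows in iAtoh1 (95% Poisson interval 27.7 to 53.3), 37 in iP+A (26.1 to 51.0), 44 in iG+A (32.0 to 59.1) and 71 in iGPA (55.5 to 89.6). All 10 members had at least 1 summit in each list, against 46.6% of all annotated genes in iAtoh1, 55.4% in iP+A, 58.0% in iG+A and 64.4% in iGPA. For genes with windows as long as those of the members, the shares were 55.4%, 65.9%, 69.2% and 76.5% in the same order. A site shared by all 4 Atoh1 lists lay near 10 of 10 members, against 27.2% of all genes. Among the 14628 genes whose windows are as long as those of the members, 34.1% had such a site. The member start was the nearest annotated start for 9 of the 19 member sites in all 4 Atoh1 lists. The only such sites of Jag2 and Dll4 were nearest to the start of another gene, as were the 2 Notch3 sites given below. That of Dll4 was joined across the 4 Atoh1 lists only through a Pou4f3 summit.

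**Figure D1:**
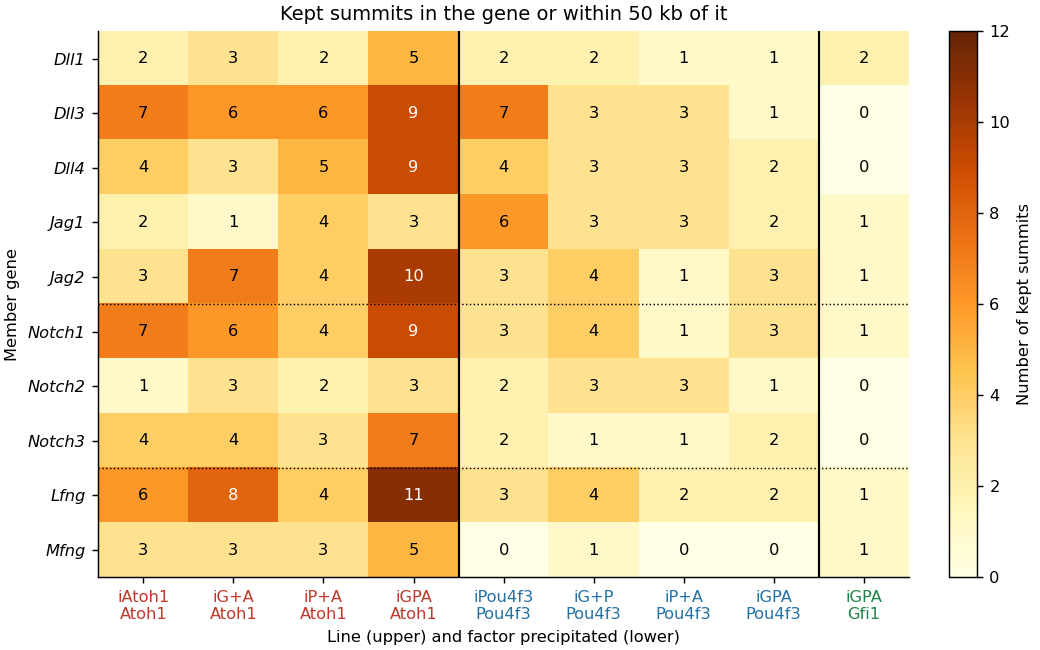
Number of kept summits in each member gene or within 50 kb of it (rows), for each of the 9 peak lists (columns, line above and factor below). Atoh1 counts reach 11 at Lfng in iGPA, and Mfng has a single Pou4f3 summit, in iG+P.

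Pou4f3 peaks were fewer near the members and closer to the background. The lists held 32 member summits in iPou4f3 (21.9 to 45.2), 18 in iP+A (10.7 to 28.4), 28 in iG+P (18.6 to 40.5) and 17 in iGPA (9.90 to 27.2). At least 1 summit lay near 9 members in iPou4f3 against 65.7% of all genes, near 9 in iP+A against 53.4%, near 10 in iG+P against 70.9% and near 9 in iGPA against 57.5%. Mfng was the member without a Pou4f3 summit in those 3 lists. A site shared by all 4 Pou4f3 lists lay near 7 members, against 32.2% of all genes, and Jag2, Notch3 and Mfng had none. Genes with windows as long as those of the members had a Pou4f3 summit more often than all genes. Their shares were 77.2% in iPou4f3, 62.1% in iP+A, 79.9% in iG+P and 67.3% in iGPA, and 38.7% for a shared site.

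The Gfi1 list of iGPA was short, with 3012 kept summits, and 7 of them lay near members (95% Poisson interval 2.81 to 14.4). These were near 6 of 10 members, against 20.1% of all genes and 24.2% of genes with windows as long as those of the members. Of the 7, 2 were near Dll1 and 1 each near Jag1, Jag2, Notch1, Lfng and Mfng. The Mfng summit lay beside repeated sequence and nearest to a start of Elfn2, as given below. Relative to the 0.0510% of the genome that the member windows cover, the share of the list inside them was 4.56 times as large for Gfi1. That value rests on the 7 summits, and no such ratio was computed for other genes. The same ratio was 4.91 in iAtoh1, 3.83 in iP+A, 4.21 in iG+A and 5.31 in iGPA for Atoh1, and 2.80 in iPou4f3, 2.07 in iP+A, 1.68 in iG+P and 1.78 in iGPA for Pou4f3.

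**Figure D2:**
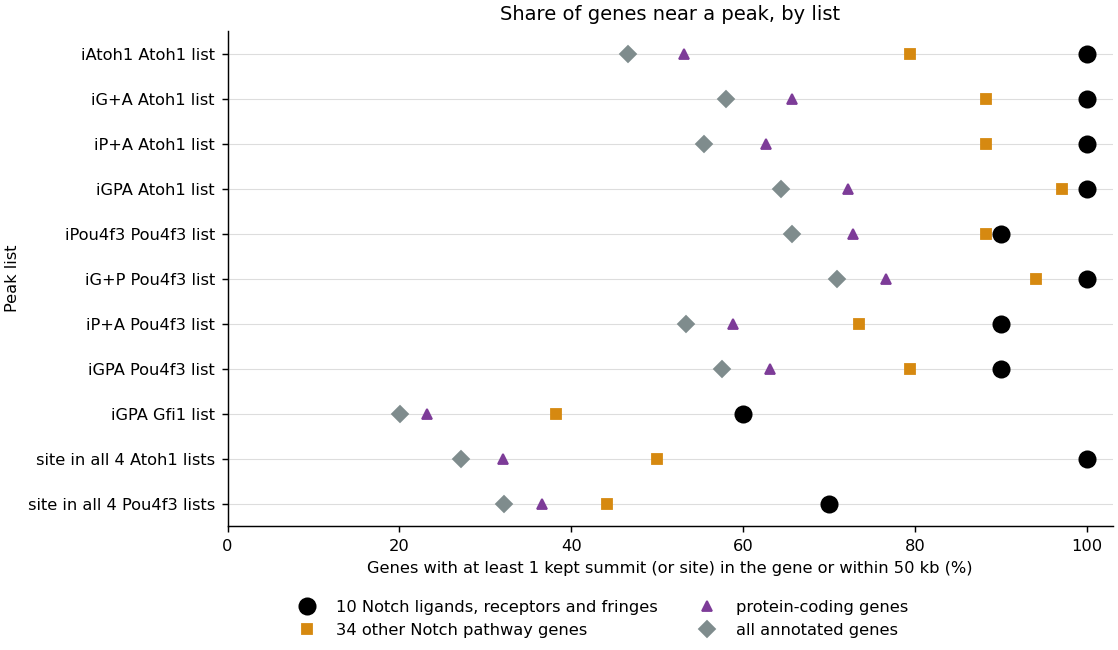
Percentage of genes with at least 1 kept summit, or 1 site shared by all 4 lists of a factor, in the gene or within 50 kb, for the 10 members, 34 other Notch pathway genes, protein-coding genes and all annotated genes. The members are at 100% for the 4 Atoh1 lists, while all annotated genes lie between 46.6% and 64.4% there.

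Sites with Atoh1 and without Pou4f3, whether or not Gfi1 was there, made up a larger share of member sites than of all sites. Of the 124 member sites, 73 had Atoh1 in at least 1 list and Pou4f3 in none (58.9%, Clopper-Pearson 95% interval 49.7 to 67.6), against 38.3% of all sites. Pou4f3 without Atoh1 was found at 29 sites (23.4%, 16.3 to 31.8, against 42.3%) and both factors at 19 (15.3% against 18.2%). Gfi1 alone was found at 3 (2.42%, 0.502 to 6.91, against 1.17%). The member start was the nearest annotated start for 55 of the 124 sites, and 15 lay within 1 kb of a member start. Most sites were intergenic (48) or intronic (49). These place counts were not set beside those of all sites of the genome.

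**Figure D3:**
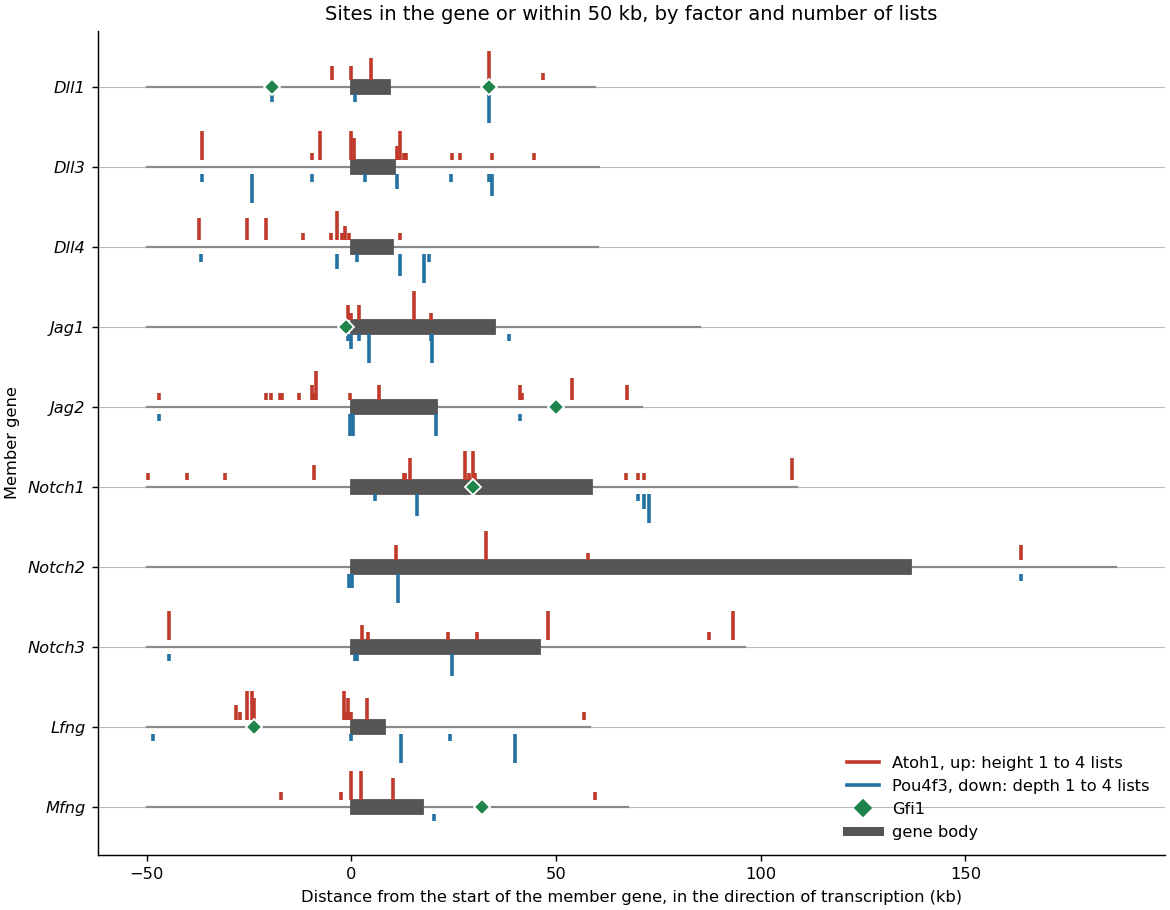
Sites near each member by distance from the start of the gene in the direction of transcription (kb). Red bars point up for Atoh1 and blue bars down for Pou4f3, each as long as the number of lists with a summit (1 to 4), green diamonds mark Gfi1, and grey boxes are gene bodies. The tallest bars of the 2 factors coincide at Dll1 only, 33.6 kb downstream of the start.

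Among the ligands, Dll1 (ENSMUSG00000014773.7, chr17:15504318-15513836, minus strand), a ligand of the nervous system and of nascent hair cells, had the only member site with a summit in all 9 lists. It was intergenic (chr17:15479791-15480399), 33.6 kb downstream of the Dll1 start, and Dll1 had the nearest annotated start. Atoh1 fold enrichment was 6.96 in iAtoh1, 8.39 in iP+A, 8.54 in iG+A and 10.8 in iGPA. Pou4f3 fold enrichment was lower, at 4.04 in iPou4f3, 3.96 in iP+A, 2.63 in iG+P and 4.66 in iGPA, and Gfi1 reached 6.60. The summits of the factors did not coincide: the 4 Atoh1 summits lay between positions 15480219 and 15480250, the Gfi1 summit at 15480180 and the 4 Pou4f3 summits between 15479941 and 15480052. With 100 bp windows in place of 300 bp, no Dll1 site had more than 5 lists. The 250 bp around each Atoh1 summit held 3 E-boxes and 1 match of the Gfi1 letters, and those around the Pou4f3 summits of iPou4f3, iG+P and iP+A held 1 match of the Pou4f letters, while that of iGPA held none.

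Dll3 (ENSMUSG00000003436.10, chr7:29076673-29087257, minus strand) encodes a divergent ligand that acts in the cell that makes it. It had the highest Atoh1 enrichment of any member, at an intergenic site 84 bp upstream of its start (chr7:29087191-29087519). The fold enrichment there was 8.06 in iAtoh1, 11.4 in iP+A, 8.81 in iG+A and 23.0 in iGPA, and no Pou4f3 or Gfi1 summit was present. The 250 bp around that summit held 3 E-boxes, and all 3 stand in the sequence above. Another site 7.66 kb upstream, in a non-coding exon of Timm50, gave 7.21, 4.95, 10.8 and 13.8 in the same order of lines. The Dll3 site found in most lists, with 5, lay 36.5 kb upstream and 5 bp from a start of Supt5h (chr7:29123562-29123940), with 4.15, 4.57, 4.54 and 6.03 for Atoh1 and 5.26 for Pou4f3 in iPou4f3. The Dll3 window is crowded, with 7 other genes starting in it, and 8 of its 42 summits were nearest to Dll3.

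Dll4 (ENSMUSG00000027314.6, chr2:119151520-119161698, plus strand), a ligand best known from blood vessels, had its strongest site 3.50 kb upstream, in an intron of Gm14207 (chr2:119147781-119148555). Atoh1 fold enrichment was 4.76 in iAtoh1, 7.31 in iP+A, 3.07 in iG+A and 10.6 in iGPA. Pou4f3 was called at 2.72 in iP+A (position 119148262) and at 3.06 in iGPA (position 119147931). These 2 Pou4f3 summits lay more than 300 bp apart and were low for their lists, at percentiles 18.3 and 10.9. The summits of this site were spread over 475 bp. The Atoh1 summits of iAtoh1, iP+A and iGPA lay between positions 119147995 and 119148024, and that of iG+A at 119148406. The iG+A summit was joined to the others only through the Pou4f3 summit of iP+A at 119148262, so its 3.07 belongs to a separate Atoh1 peak. A site 17.8 kb downstream was in all 4 Pou4f3 lists at 3.92 in iPou4f3, 4.53 in iP+A, 3.72 in iG+P and 4.95 in iGPA, with no Atoh1 summit and 2 overlapping matches of the Pou4f letters.

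Jag1 (ENSMUSG00000027276.7, chr2:136907192-136942380, minus strand), the ligand of the prosensory domain of the ear, was the only member with more Pou4f3 than Atoh1 summits, 14 against 10, and no other gene starts in its window. The site in most lists with the highest enrichment was intronic, 15.3 kb downstream of the start (chr2:136926910-136927244). Atoh1 gave 4.76 in iAtoh1, 7.31 in iP+A, 3.60 in iG+A and 9.97 in iGPA there, with 3 E-boxes and no Pou4f3. The same gene had 2 intronic sites shared by all 4 Pou4f3 lists without Atoh1. The site 19.8 kb downstream gave 7.13 in iPou4f3, 5.21 in iP+A, 3.61 in iG+P and 8.16 in iGPA, and the site 4.35 kb downstream gave 5.35, 4.42, 3.94 and 6.12 in the same order. Both held 1 match of the Pou4f letters, and neither held an E-box. Atoh1 and Pou4f3 had separate shared sites in the introns of 1 gene.

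Jag2 (ENSMUSG00000002799.5, chr12:114146801-114167706, minus strand), a ligand of hair cells, had the most member sites together with Notch1, 18 each, but only 1 site in all 4 Atoh1 lists and none in all 4 Pou4f3 lists. The shared Atoh1 site lay 8.65 kb upstream in an intron of Nudt14 (chr12:114176181-114176508), at 8.06 in iAtoh1, 3.76 in iP+A, 8.01 in iG+A and 9.60 in iGPA. Near its own start, 408 bp upstream, Pou4f3 gave 4.13 in iPou4f3, 3.83 in iG+P and 4.62 in iGPA and was not called in iP+A. A weak Atoh1 summit of iAtoh1 was at the same site, at 2.44. Another Pou4f3 site, 461 bp downstream of the start, gave 3.09 in iPou4f3, 2.63 in iG+P and 3.64 in iGPA.

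Among the receptors, Notch1 (ENSMUSG00000026923.8, chr2:26313423-26372183, minus strand), the receptor that most signalling in neural and sensory progenitors uses, had the strongest site at which Atoh1 and Gfi1 met. It lay in an intron, 29.7 kb downstream of the start (chr2:26342282-26342647). Atoh1 fold enrichment was 8.06 in iAtoh1, 6.68 in iP+A, 16.2 in iG+A and 19.4 in iGPA, and Gfi1 in iGPA reached 12.2, the highest of the 7 Gfi1 sites. The Atoh1 and Gfi1 summits of iGPA were at positions 26342488 and 26342486. The 250 bp window held 3 E-boxes and no match of the Gfi1 letters. A neighbouring intronic site 27.7 kb downstream gave 5.13, 3.98, 12.4 and 10.6 for Atoh1 in the same order of lines, so that both sites were higher in the 2 lines with Gfi1 and Atoh1 than in the other two.

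The highest Pou4f3 enrichment in any member window was also in that of Notch1, but beyond its end. The site lay 72.8 kb downstream of the Notch1 start in an intron of Sec16a, 1358 bp from a Sec16a start, and gave 14.6 in iPou4f3, 8.04 in iP+A, 12.1 in iG+P and 19.2 in iGPA, with no Atoh1 or Gfi1 summit. It held no match of the Pou4f letters in the 250 bp around its summit.

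Notch2 (ENSMUSG00000027878.9, chr3:97817461-97954290, plus strand) was the only member whose highest fold enrichment came from a Pou4f3 list. That site lay in an intron 11.5 kb downstream of the start (chr3:97828749-97829102), with the full Pou4f letters and no Atoh1, and gave 3.57 in iPou4f3, 2.94 in iP+A, 6.13 in iG+P and 7.14 in iGPA. Its site in all 4 Atoh1 lists, in an intron 32.9 kb downstream, was at 3.54 in iAtoh1, 3.76 in iP+A, 4.14 in iG+A and 4.80 in iGPA. Notch2 was also the member without an Atoh1 site found in iGPA alone.

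Notch3 (ENSMUSG00000038146.7, chr17:32257765-32303825, minus strand), a receptor of vessel walls and neural progenitors, had 3 sites in all 4 Atoh1 lists. The 2 beyond its end were not the strongest of the 3. The site 48.0 kb downstream of its start, in an intron of Gm17276 (chr17:32255487-32256009), gave 3.42 in iAtoh1, 3.55 in iP+A, 3.74 in iG+A and 6.28 in iGPA. The site 93.3 kb downstream was intergenic (chr17:32210321-32210693) and gave 3.79, 2.84, 3.07 and 6.37 in the same order of lines. Neither had a Pou4f3 or Gfi1 summit, and they held 2 and 3 E-boxes. Of the 24 summits near Notch3, 18 were of Atoh1 and 6 of Pou4f3, and 9 were nearest to its own start.

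The fringe genes had 5 of the 19 sites in all 4 Atoh1 lists in the shortest summed window, 226 kb against 586 kb for the ligands and 542 kb for the receptors, which held 8 and 6. Lfng (ENSMUSG00000029570.1, chr5:141083295-141091497, plus strand), the fringe of supporting cells, had 29 Atoh1 summits, the most of any member. Its strongest site was intergenic, 1.88 kb upstream (chr5:141081238-141081581), at 4.64 in iAtoh1, 2.90 in iP+A, 7.88 in iG+A and 11.1 in iGPA. Further upstream lay shared sites 25.4 and 24.2 kb from the start, both nearest to a start of Grifin. The former gave 4.64, 4.09, 4.01 and 4.06 in the same order, and was the only member site in all 4 Atoh1 lists with its highest value in iAtoh1. The latter gave 5.37, 4.84, 8.68 and 8.37. The site 23.7 kb upstream (chr5:141059315-141059709), also nearest to Grifin, was called in iAtoh1 at 3.18, iG+A at 3.74 and iGPA at 5.78, and had Gfi1 at 4.31. Lfng also had 2 sites in all 4 Pou4f3 lists, 12.2 and 39.9 kb downstream, without Atoh1 and without a match of the Pou4f letters, at 5.24 and 5.79 in iGPA.

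Mfng (ENSMUSG00000018169.6, chr15:78586312-78603905, minus strand) had Atoh1 at 2 shared sites on either side of its start. The site 2.37 kb downstream, in an intron (chr15:78601358-78601689), gave 3.05 in iAtoh1, 3.76 in iP+A, 6.81 in iG+A and 9.48 in iGPA. The site 123 bp upstream gave 4.03, 3.23, 5.74 and 8.98 in the same order, with 2 E-boxes. The single Pou4f3 summit near Mfng, in iG+P at 2.83, lay 20.3 kb downstream. It was 11 bp from a called Atoh1 peak of iG+A that the summit file leaves out, which had a fold enrichment of 9.49 and a width of 64 bp.

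Fold enrichment at the 19 sites in all 4 Atoh1 lists was highest in iGPA at 16 of them, against 61.7% of all 4767 such sites. The median was 4.76 in iAtoh1 (range 3.05 to 8.06), 4.30 in iP+A (2.84 to 11.4), 6.81 in iG+A (3.07 to 16.2) and 9.60 in iGPA (4.06 to 23.0). The iGPA value was above the iAtoh1 value at 18 of 19 sites (94.7%, 74.0 to 99.9, against 78.6% of all such sites), with a median ratio of 1.91 against 1.42 over all. The iG+A value was above the iAtoh1 value at 13 (68.4% against 66.3%) and the iP+A value at 9 (47.4% against 52.2%). The 19 include the Dll4 site, whose iG+A value is that of a separate Atoh1 peak, joined through a Pou4f3 summit. The ranges of the lists overlap, and fold enrichment depends on the depth and background of each merged library, whose part in these differences was not tested.

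**Figure D4:**
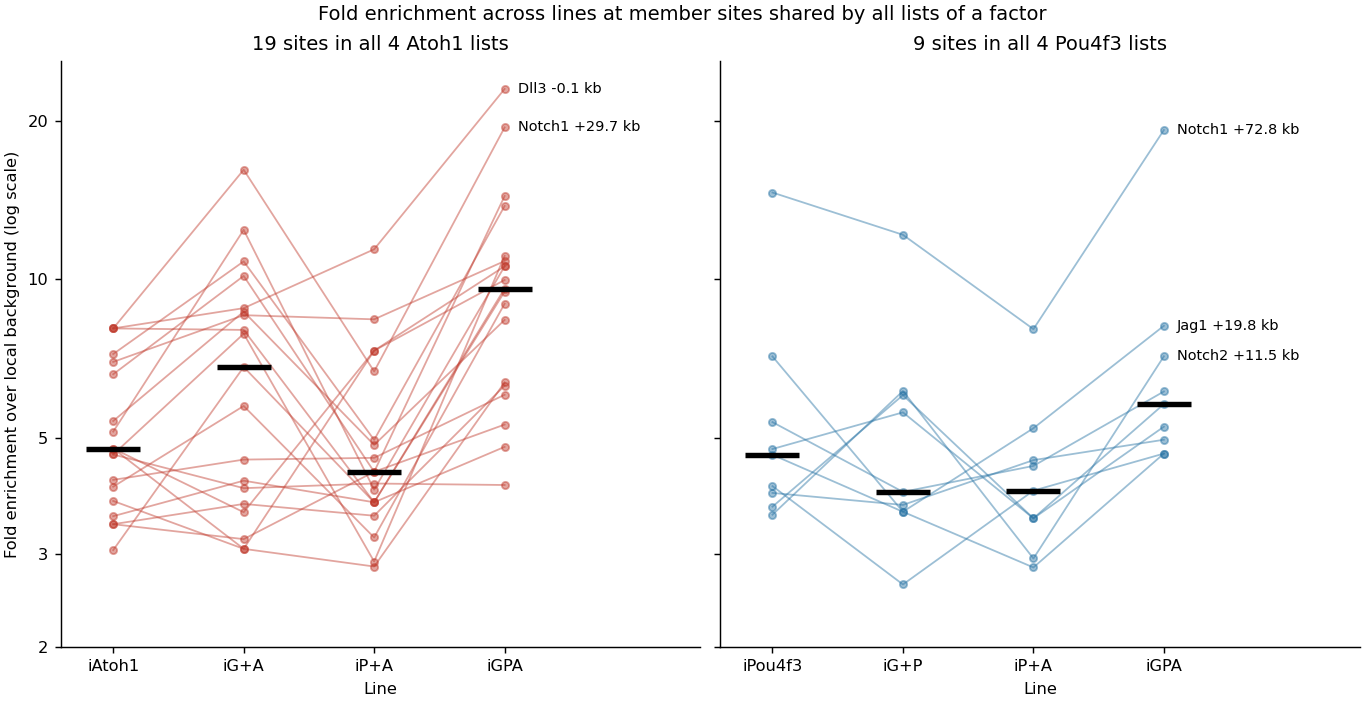
Fold enrichment over the local background (log axis) in each line at the 19 member sites in all 4 Atoh1 lists (left) and the 9 in all 4 Pou4f3 lists (right). Each line joins 1 site, but at the shared Atoh1 site of Dll4 the iG+A value is that of a separate Atoh1 peak. Black bars are medians. The Atoh1 median is 9.60 in iGPA and 4.76 in iAtoh1, and some of the highest sites are named by gene and distance from its start.

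At the 9 sites in all 4 Pou4f3 lists, iGPA gave the highest value at 8, against 64.8% of all 7032 such sites. The medians were 4.64 in iPou4f3, 3.96 in iP+A, 3.94 in iG+P and 5.79 in iGPA. The iGPA value exceeded the iPou4f3 value at 9 of 9 sites (100%, 66.4 to 100, against 74.3% of all such sites), with a median ratio of 1.22 against 1.23 over all sites of that kind.

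Most Atoh1 sites of iAtoh1 near members were found again in the other lines. Of its 39 sites, 27 had a summit in iG+A (69.2%, 52.4 to 83.0), 24 in iP+A (61.5%, 44.6 to 76.6) and 30 in iGPA (76.9%, 60.7 to 88.9). Over all sites of iAtoh1 the shares were 53.7%, 51.4% and 54.3%, so that the iGPA share near members was the only one whose interval lay above it. With windows of 10 kb it was 69.2% (48.2 to 85.7), and where the member had to hold the nearest start 65.0% (40.8 to 84.6), and both intervals include 54.3%. Of the 69 iGPA member sites, 30 were in iAtoh1 (43.5%, 31.6 to 56.0, against 32.0% of all) and 39 were not, and 27 of the 92 Atoh1 sites were in iGPA alone among the Atoh1 lists (29.3%, 20.3 to 39.8, against 20.9%). These 27 were weak, with fold enrichment from 2.71 to 4.92 and a median of 3.08. Some had a called peak of another Atoh1 list close by that the summit files leave out. In iG+A such peaks lay 36 bp from the strongest, near Mfng at 4.92, and 4 bp from that near Lfng at 4.76. In iP+A another lay 20 bp from a Notch1 summit at 3.08. The iGPA list is also the longest Atoh1 list, with 26231 kept summits against 15568 in iAtoh1, and with lists of equal length iGPA held 46 member summits in place of 71.

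The Pou4f3 sites of iPou4f3 near members were found again in shares whose intervals include those over all sites. Of the 32 member sites of iPou4f3, 18 were found in iG+P (56.2%, 37.7 to 73.6, against 63.1% of all sites), 12 in iP+A (37.5%, 21.1 to 56.3, against 44.6%) and 14 in iGPA (43.8%, 26.4 to 62.3, against 49.8%). In the other direction, 14 of the 17 iGPA sites were in iPou4f3 (82.4%, 56.6 to 96.2, against 59.2%).

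Atoh1 and Pou4f3 met at 3 member sites in iGPA. Of the 69 iGPA Atoh1 sites, these 3 had a Pou4f3 summit of iGPA (4.35%, 0.906 to 12.2), against 16.0% of all iGPA Atoh1 sites, and with site windows of 1000 bp the share was 9.26% (3.08 to 20.3). Of the 17 iGPA Pou4f3 sites, the same 3 were 17.6% (3.80 to 43.4), against 21.9% of all. At the Dll1 site 33.6 kb downstream and the Dll4 site 3.50 kb upstream, 2 of the 3, the iGPA Pou4f3 values were 4.66 and 3.06. The Dll4 value was low for its list, at percentile 10.9 of the kept summits, with a −log10 p of 5.99. Of the 19 sites in all 4 Atoh1 lists, 15 had no Pou4f3 summit in any list (78.9%, 54.4 to 93.9, against 65.1%). Of the 9 in all 4 Pou4f3 lists, 8 had no Atoh1 summit (88.9%, 51.8 to 99.7, against 74.1%), with Dll1 as the exception. Both of these intervals include the share over all sites.

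Gfi1 met Atoh1 of iGPA at 3 of its 7 member sites (42.9%, 9.90 to 81.6), against 45.2% of all Gfi1 sites. These were the sites at Dll1 33.6 kb downstream, Notch1 29.7 kb downstream and Lfng 23.7 kb upstream. The Gfi1 peaks at the other 4 sites had no Atoh1 summit of iGPA. Jag1 had Gfi1 alone 1.21 kb upstream of its start (chr2:136943436-136943735) at 4.33. Jag2 had it 50.1 kb downstream of its start (chr12:114117467-114117766) at 4.84, and Mfng 32.0 kb downstream (chr15:78571774-78572073) at 6.60. The nearest annotated start was that of Gm17723 for this Jag2 site and that of Elfn2 for the Mfng site. Just past the Mfng summit the sequence ran into repeated gattt units, and the site held no E-box, Pou4f or Gfi1 letters. Whether the repeated units affect the 6.60 was not tested. The second Dll1 site, 19.4 kb upstream and 47 bp from a start of Fam120b (chr17:15533107-15533551), had Gfi1 at 3.95 and Pou4f3 of iPou4f3 at 2.50. The Jag2 window shared 7 words of 16 bases with the window of the Dll3 site 24.4 kb upstream, which all 4 Pou4f3 lists held, and no other pair of member windows shared more than 3. Both windows hold the Pou4f letters in an A/T-rich stretch, and whether this is repeat sequence was not tested.

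In the 250 bp around each summit, the E-box was frequent at shared Atoh1 sites and the Pou4f letters at shared Pou4f3 sites, while few Gfi1 sites held the Gfi1 letters. All 19 sites in all 4 Atoh1 lists held an E-box (100%, 82.4 to 100), against 82.2% of all such sites and 28.1% of flanking windows 1 kb away. None of the 19 held the Pou4f letters (upper bound 17.6%), against 4.01% of all such sites. Of the 9 sites in all 4 Pou4f3 lists, 5 held the Pou4f letters (55.6%, 21.2 to 86.3), against 59.9% of all and 10.4% of flanks, and with no mismatch allowed 2 did. The Gfi1 letters stood at 1 of 7 Gfi1 sites, that of Dll1 (14.3%, 0.361 to 57.9), against 7.96% of all Gfi1 sites and 0.769% of flanks, and an E-box stood at 3 of the 7 (42.9% against 41.2%). The windows are centred on the highest summit of a site, which at the Dll1 site is that of Atoh1.

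**Figure D5:**
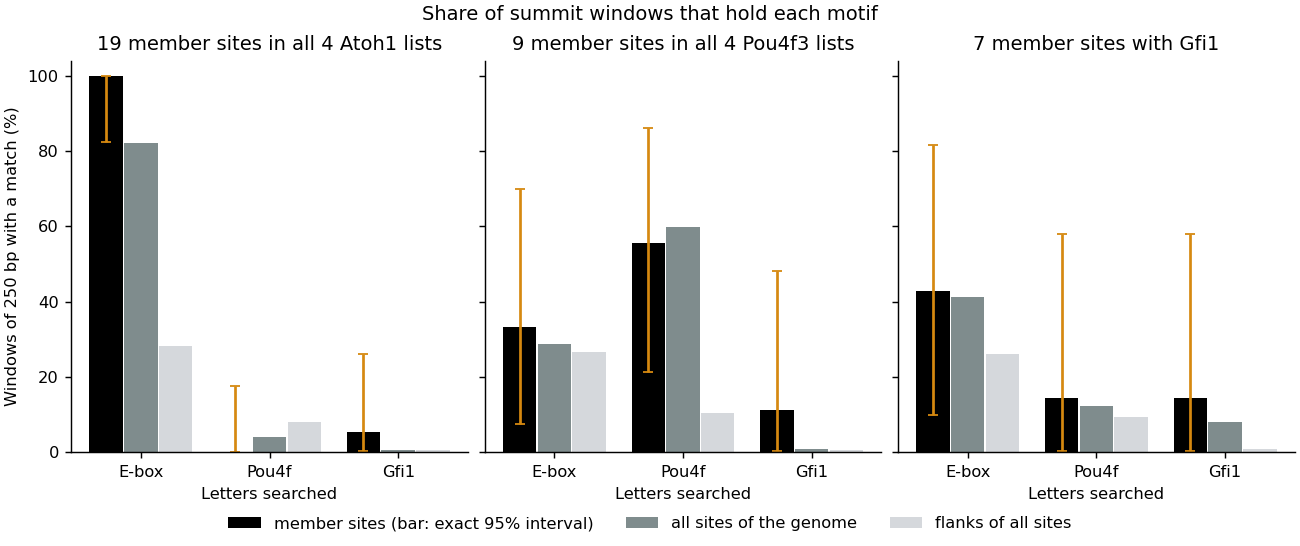
Share of 250 bp windows with the E-box, Pou4f or Gfi1 letters at member sites (black, with exact 95% intervals), at all sites of the genome of the same kind (dark grey) and in their flanks (light grey), for sites in all 4 Atoh1 lists, in all 4 Pou4f3 lists and with Gfi1. The E-box share is 100% at the 19 member Atoh1 sites and 82.2% at all such sites.

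The other genes of the pathway lay between the members and the background. Of 34 such genes, which include the sheddases, the parts of γ-secretase that cut Notch, Rbpj and its co-activators, and the Hes and Hey targets, 27 had an Atoh1 summit in iAtoh1, 30 in iP+A, 30 in iG+A and 33 in iGPA. A Pou4f3 summit lay near 30 in iPou4f3, 25 in iP+A, 32 in iG+P and 27 in iGPA, and a Gfi1 summit near 13. A site in all 4 Atoh1 lists lay near 17 of the 34, and near all 10 members, for Dll4 only as a site joined through a Pou4f3 summit. A site in all 4 Pou4f3 lists lay near 15, and near 7 members. Among the targets, the highest Atoh1 fold enrichment of iGPA was 9.23 near Hes1, 5.78 near Hes5, 28.8 near Hes6, 11.7 near Hey1, 2.83 near Hey2 and 9.97 near Heyl.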

How the data were processed

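ChIP-seq of 29 libraries was analysed from the deposited peak lists, 1 per line and antibody. According to the study's methods and the submitters' processing notes, reads were trimmed (Trimmomatic), aligned to mm9 (Bowtie2), cleared of duplicates (Picard), poorly mapped reads (SAMtools) and blacklisted regions (bedtools), and peaks were called with MACS2 on merged libraries against merged input. The deposited values used were the fold enrichment (a ratio over local background) and the −log10 p of each called peak, as the authors' peak caller gave them, with the summit offset. The authors' summit files leave out 14.1% to 35.5% of called peaks by a filter not given in the sources used here, and 27 further columns of values were not used. Lists named 3TFs were taken as iGPA by their labels.

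Genes and sequences came from the GENCODE vM1 annotation and NCBIM37 genome, the build of the files (every peak lay within its chromosome). Windows, sites, intervals and letters were computed with Python 3.11.15, pandas 2.3.3, numpy 2.4.6 and scipy 1.17.1, checked on simulated peaks. Intervals are exact Poisson for counts and Clopper-Pearson for shares at 95%. Each gene counted as called with at least 1 kept summit. Per member, the site in the most lists, the site with the highest fold enrichment and all Gfi1 sites were named, except 1 site that is counted but not reported here, and the other sites given were chosen after their values were seen. Members and pathway genes were chosen with earlier results of these data known. Alternatives were windows of 10 and 100 kb, the nearest start, peaks not in the summit files added, only peaks with a −log10 p of 10 or more, lists cut to the same length, site windows of 100 and 1000 bp, a 100 bp search and no mismatch.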

Additional observations from a re-analysis of the deposited data

Results flagged for a closer look

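Called peaks near the members that the authors' summit files leave out, and that the comparisons above do not use, were found in 8 of the 9 lists. There were 2 in the iAtoh1, 4 in the iG+A, 1 in the iP+A and 1 in the iGPA Atoh1 list, and 3 each in the iPou4f3, iG+P, iP+A and iGPA Pou4f3 lists. The 20 peaks had fold enrichments from 2.19 to 3.42, except the peak 20.3 kb downstream of the Mfng start in the iG+A Atoh1 list, which reached 9.49 with a −log10 p of 48.2. That peak was 64 bp wide, against a median of 154 bp over the 44 kept member peaks of the list, and the only Pou4f3 summit near Mfng lies 11 bp from it.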

How the results depend on the processing

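No paired analysis was possible because peaks were called on merged libraries and the lists carry no replicate values. For the same reason no replicate could be left out. Of 225 alternative values, 177 stayed within 1.5 times the main count or within the interval of the main share, including all values with all called peaks and with site windows of 100 or 1000 bp. With 10 kb windows, Atoh1 summits fell to 23 in iP+A, 28 in iG+A and 41 in iGPA, Pou4f3 summits to 21 in iPou4f3, 11 in iP+A and 11 in iGPA, and Gfi1 summits to 2 near 2 members, with 5 sites in all 4 Pou4f3 lists. With 100 kb windows, Pou4f3 summits were 51 in iPou4f3, 28 in iP+A, 52 in iG+P and 28 in iGPA, Gfi1 summits 12, and sites in all 4 Pou4f3 lists 14. Where the member had to hold the nearest start, Atoh1 summits were 20 in iAtoh1, 17 in iP+A, 22 in iG+A and 29 in iGPA, Pou4f3 summits 17 in iPou4f3, 9 in iP+A, 17 in iG+P and 9 in iGPA, and Gfi1 summits 3 near 3 members. Then 9 sites were in all 4 Atoh1 lists and 5 in all 4 Pou4f3 lists, and 100% of iGPA Pou4f3 sites were in iPou4f3. With a −log10 p of at least 10, Atoh1 summits were 21 in iAtoh1, 21 in iP+A, 20 in iG+A and 38 in iGPA, Pou4f3 summits 12 in iG+P, 13 in iPou4f3 and 5 in iP+A, the last near 4 members, and Gfi1 summits 4, with 10 and 4 sites in all 4 Atoh1 and all 4 Pou4f3 lists. In that setting 76.9% of iPou4f3 sites were in iGPA. With lists of equal length, summits were 46 in iGPA for Atoh1 and 21 in iPou4f3 and 16 in iG+P for Pou4f3, and 60.9% of iGPA Atoh1 sites were in iAtoh1. In a 100 bp search the Gfi1 letters were at 0% of the sites in all 4 Atoh1 lists, in all 4 Pou4f3 lists and with Gfi1. Without a mismatch the Pou4f letters were at 0% of Gfi1 sites. Atoh1 was near 7 to 10 members in every list and setting, and in iGPA near 10 in each. The cause of these changes was not tested, other than the fewer peaks, shorter lists or other windows that the settings themselves bring. Read depth is unknown, and the number of sites, 19, 9 and 7, limits each share.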
